A study of Mus musculus with 3 samples.

Results

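The genes described here encode SR proteins, hnRNPs and 10 further regulators of alternative splicing, measured in mouse splenic T lymphocytes after 10 h with LZ-8. Members were the rows of the count table with an Srsf symbol followed by a number (11 genes) or a symbol starting with Hnrnp (20 genes, pseudogene symbols left out), plus Tra2a, Tra2b, Ptbp1, Ptbp3, Celf1, Celf2, Mbnl1, Mbnl2, Sfpq and Khdrbs1. That gave 41 of the 44788 rows, all of which matched a GENCODE gene. Female BALB/c mice aged 6 to 8 weeks gave the spleens, from which cells were pulled out with CD90.2 beads, which bind the T cell antigen Thy1, and were kept in medium with 2% fetal bovine serum. LZ-8 comes from the fungus Ganoderma lucidum and acts on immune cells. All 3 libraries, replicates 1 to 3, carried the same label, so levels in treated cells and differences between libraries were measured, and no effect of LZ-8.

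SR proteins carry an RNA recognition motif and a domain rich in arginine and serine, and bind exonic enhancers to promote the use of nearby splice sites. hnRNPs coat nascent transcripts, and many of them bind silencers and oppose SR proteins, so the balance between both groups shapes which exons enter a messenger RNA. In T cells such proteins are known to change the exons of the phosphatase gene Ptprc (CD45) on activation, with Hnrnpll and Hnrnpl among the repressors. Many of these genes also limit their own output through exons that carry a premature stop codon.

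The libraries held 13239482, 15007652 and 15683820 counts, and levels are given as CPM, the count scaled to the size of the library after correction by the trimmed mean of M-values. The labels do not say whether replicates came from separate animals or cultures, so SDs concern the spread between these libraries, which may be technical. P-values of the chi-square test used below measure departure from counting error alone. They get smaller with depth and do not measure the spread between replicates. The mean of each of 12 T cell markers was 100 CPM or higher, and they summed to 4252 to 4398 CPM, whereas 28 markers of other spleen cells summed to 31.4 to 33.1 CPM. Among the latter, 19 stayed under 1 CPM in every library and 6 had no count in any, Csf1r of macrophages and Ncr1 of NK cells included. Other markers of the same cells were detected, with means of 5.57 CPM for Cd68 of macrophages and 0.815 CPM for Klrb1c of NK cells. Zbtb46 of dendritic cells had 9.90 CPM, and 5 B cell markers summed to 11.1 to 11.8 CPM, so traces of other cells were present. An 18S ribosomal RNA row took 5.83%, 2.37% and 0.992% of the counts in replicates 1, 2 and 3, and its part in the differences between libraries given further on was not tested beyond leaving such rows out.

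Splicing factor genes were abundant in these T cells. By their means, 35 of the 41 members reached 100 CPM and 40 reached 10 CPM, levels reached by 5.67% and 20.6% of all rows. Their median was 274 CPM, beside 50.3 CPM over the 9204 genes of at least 10 CPM. Together the members took 1.12% of all counts in replicate 1 (exact binomial 95% interval 1.11% to 1.12%, counting error only), 1.22% in replicate 2 and 1.26% in replicate 3. All counts here include the ribosomal RNA rows, which fell from replicate 1 to 3, and the share was not computed without them. After scaling, the members summed to 11629, 12079 and 12235 CPM in replicates 1, 2 and 3. Per kilobase of exon, the measure used here to compare genes, the median was 38.2 CPM, beside 12.7 CPM over genes of at least 10 CPM, and 31 of 41 members lay in the top 25% of coding genes of at least 1 CPM.

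By their own rows, the highest levels per kilobase belonged to genes of different groups. Hnrnpab, an hnRNP of the A and B group, came first at 210 ± 22.5 CPM per kilobase (mean ± SD here and below, n = 3), followed by Ptbp1 at 177 ± 3.71. Srsf2, an SR protein of nuclear speckles, was at 163 ± 27.0, Hnrnpf at 152 ± 10.0 and Sfpq at 118 ± 18.3 CPM per kilobase. The libraries of Srsf2 spread over the values of Ptbp1 and Hnrnpf, so the order of these neighbours is within the spread between libraries.

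Among the SR genes, 9 of 11 reached a mean of 100 CPM, and the values below are CPM in replicates 1, 2 and 3. Srsf2 (chromosome 11 from 116849901 to 116853094, GRCm38) had 553, 495 and 395 CPM, highest in replicate 1. Srsf1, the founding SR protein, had 329, 366 and 361 CPM, and its relative Srsf9 had 63.6, 53.7 and 44.7 CPM. Their exons cover 5710 and 1653 bases, and per kilobase Srsf1 was 1.90-fold above Srsf9. Srsf3 and Srsf7, which also act as adaptors in the export of messenger RNA, had 223, 235 and 208 CPM and 278, 305 and 297 CPM. The long-tailed SR proteins are encoded by Srsf4 with 120, 108 and 86.5 CPM, Srsf5 with 258, 245 and 231 CPM, and Srsf6 with 345, 384 and 418 CPM. Of these, Srsf4 and Srsf5 were lowest in replicate 3 and Srsf6 was highest there.

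Srsf10, whose protein can repress splicing when it loses its phosphates, had 95.1, 122 and 143 CPM and the largest coefficient of variation of the members of at least 10 CPM (20%). Srsf11 ranged from 289 to 370 CPM. Srsf12 was the only member below 1 CPM in every library, with 5, 4 and 9 counts. These correspond to 0.393 CPM (exact Poisson 95% interval 0.128 to 0.917), 0.264 CPM (0.0719 to 0.675) and 0.557 CPM (0.255 to 1.06), so the counting error covers the differences between libraries. A level of 3 counts, taken as the detection floor, was 0.236, 0.198 and 0.186 CPM.

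All 20 Hnrnp genes reached a mean of 10 CPM, and 17 of them reached 100 CPM. In the A and B group, Hnrnpa2b1 had 565, 572 and 656 CPM, Hnrnpab 641, 597 and 518 CPM, Hnrnpa1 244, 260 and 246 CPM, and Hnrnpa3 113, 124 and 132 CPM. As scaled, Hnrnpa2b1 was highest in replicate 3 and Hnrnpab lowest there. Hnrnpc, whose protein binds runs of uridine, had 360, 438 and 430 CPM. Hnrnpd and Hnrnpdl, relatives that bind AU-rich messenger RNAs, had 162, 177 and 191 CPM and 379, 391 and 454 CPM, each lowest in replicate 1 and highest in replicate 3.

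The G-run binders Hnrnpf (457, 435 and 496 CPM), Hnrnph1 (252, 286 and 283 CPM) and Hnrnph2 (65.0, 71.2 and 83.2 CPM) had ranges that did not overlap. Hnrnpl (406, 393 and 354 CPM) and Hnrnpll (64.2, 75.2 and 79.9 CPM) bind CA-rich sequences. Hnrnpu, a nuclear scaffold protein gene, had 771, 817 and 798 CPM, while its relatives Hnrnpul1 and Hnrnpul2 had 280, 289 and 323 CPM and 284, 283 and 285 CPM. Hnrnpul2 had the lowest coefficient of variation of the members of at least 10 CPM (0.263%). The remaining genes of the group, Hnrnpm, Hnrnpk, Hnrnpa0, Hnrnpr and Hnrnph3, had means from 21.9 CPM (Hnrnph3) to 399 CPM (Hnrnpm).

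Of the 10 further regulators, 9 reached a mean of 100 CPM. Ptbp1 (chromosome 10 from 79854427 to 79864771), which binds pyrimidine tracts and represses exons, had 824, 834 and 858 CPM, and its relative Ptbp3 had 210, 251 and 237 CPM. Mbnl1, a muscleblind protein gene, had 502, 590 and 615 CPM, far from Mbnl2 with 35.1, 37.5 and 35.4 CPM. Celf1 and Celf2, which bind GU-rich sequences, had 270, 299 and 317 CPM and 91.0, 110 and 100 CPM. Tra2a and Tra2b, relatives of SR proteins that bind GAA-rich enhancers, had 107, 117 and 120 CPM and 137, 142 and 135 CPM. Sfpq, a paraspeckle protein gene, had 472, 561 and 645 CPM, and Khdrbs1, which encodes the signal-regulated RNA binder Sam68, ranged from 162 to 195 CPM.

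**Figure D1:**
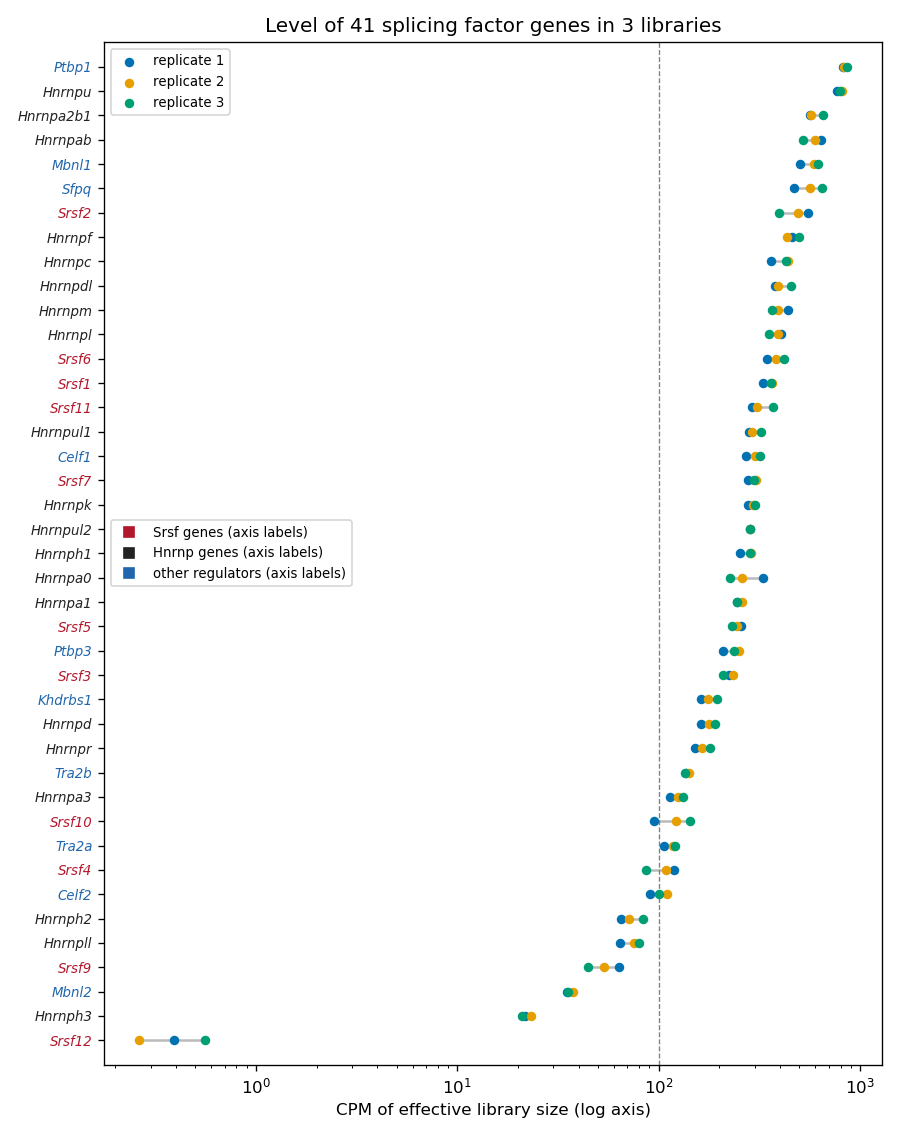
Level of each of the 41 members in 3 libraries (points, CPM on a log axis), ordered by mean, with the family in the colour of the gene label and a grey bar from the lowest to the highest library. The dashed line marks 100 CPM, which 35 members exceeded by their mean, and Srsf12 stands alone below 1 CPM.

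For several members the row of the gene held only part of the counts of its sequence family. Aligned to coding transcripts of the members, 69 pseudogene rows of the table matched one of 15 members with at least 90% identity over at least 200 bases, 23 of them with 98% or more. Hnrnpa1 (chromosome 15 from 103240432 to 103246692) had 13 such rows. The pseudogene Gm10052 (chromosome 9 from 123689233 to 123690192), identical to Hnrnpa1 over 960 aligned bases, had 713, 685 and 640 CPM, above the 244, 260 and 246 CPM of Hnrnpa1 itself in every library. Sequences are shown for a 100-base window of the coding sequence of Hnrnpa1 (positions 526 to 625 from its start codon). The window was chosen because differences between the printed rows were most frequent there. Of the 13 rows, only Gm10052 (100% identity) and Gm5643 (98.7%) are printed, so not every row of 98% or more is shown. Gm7729, with 99.4% identity over 804 bases and 116, 126 and 96.7 CPM, is not printed, although it was closer to Hnrnpa1 and more abundant than Gm5643. Identity went down to 90.3% (Gm11860) among the rows left out, so the letters describe the printed rows alone. Capitals mark bases that differ from the member, and the same is shown for Srsf3 (positions 149 to 248) and its pseudogene Gm9761.
Hnrnpa1: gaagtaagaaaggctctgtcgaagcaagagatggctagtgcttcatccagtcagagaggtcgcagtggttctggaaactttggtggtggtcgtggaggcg
Gm10052: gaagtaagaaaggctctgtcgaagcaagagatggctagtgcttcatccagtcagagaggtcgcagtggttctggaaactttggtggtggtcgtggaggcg
Gm5643: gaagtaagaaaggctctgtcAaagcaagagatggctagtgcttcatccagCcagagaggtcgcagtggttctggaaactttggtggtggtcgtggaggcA
Srsf3: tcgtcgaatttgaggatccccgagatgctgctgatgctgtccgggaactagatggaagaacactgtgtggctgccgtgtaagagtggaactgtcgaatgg
Gm9761: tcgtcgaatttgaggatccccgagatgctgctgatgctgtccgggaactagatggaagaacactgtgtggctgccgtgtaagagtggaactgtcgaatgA

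The letters leave Hnrnpa1 and Gm10052 without a single difference in this window, Gm5643 with 3 and Gm9761 with 1. Gm5643 had 66.1, 67.3 and 36.5 CPM, and Gm9761 had 253, 245 and 214 CPM, beside 223, 235 and 208 CPM for Srsf3. How the authors assigned reads that map to several places is not stated in these sources. Whether reads of the pseudogene rows came from the coding genes cannot be told apart from these counts.

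Adding pseudogene rows to their closest member, a step chosen after the values were seen, moved Hnrnpa1 from 250 ± 8.59 to 1186 ± 105 CPM, from the 23rd to the 1st place among the members by mean CPM. Per kilobase, Hnrnpa1 at 376 ± 33.3 CPM and Hnrnpf at 304 ± 10.7 CPM then lay above Hnrnpab in every library. Hnrnpa3, which had 29 such rows, went from 123 ± 9.58 to 840 ± 38.9 CPM. Hnrnpf went from 463 ± 30.6 to 926 ± 32.6 CPM, Hnrnpk from 290 ± 12.1 to 675 ± 21.2 CPM, and Srsf3 from 222 ± 13.7 to 459 ± 32.8 CPM. Tra2b rose from 138 ± 3.32 to 269 ± 18.1 CPM by the same step, and Srsf5 from 245 ± 13.4 to 370 ± 15.7 CPM. In contrast, Hnrnpa2b1, Hnrnpdl and Srsf7 had 1 such row each and moved by a factor of 1.03 or less. The members' share of all counts went from 1.20% to 1.53% with these rows, and to 1.47% with rows of 98% identity or more alone.

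**Figure D2:**
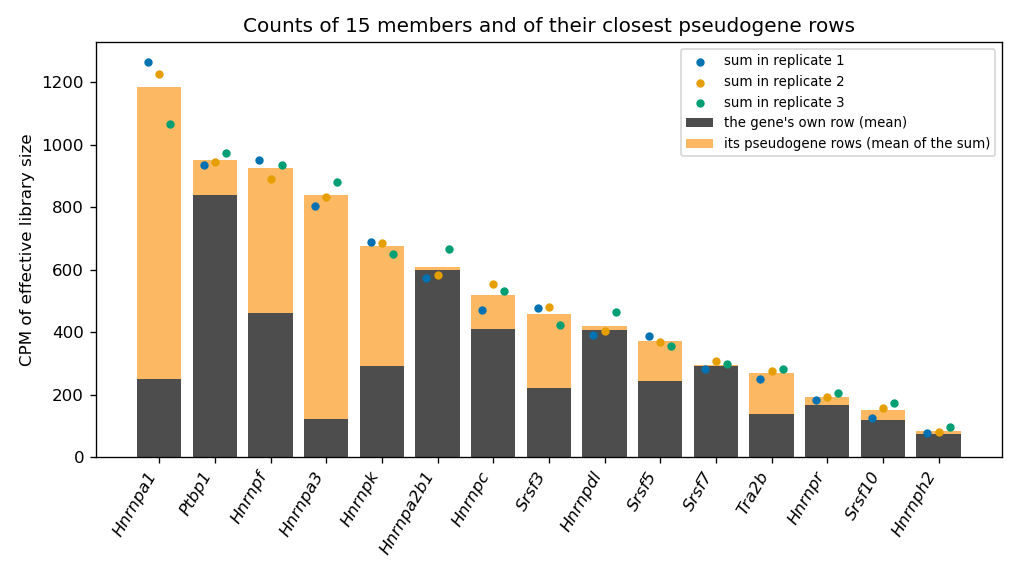
Mean CPM of the own row of 15 members (dark bars) and of their pseudogene rows stacked on top (light bars), with the sum in each library as points. The light part is larger than the dark part for Hnrnpa1, Hnrnpa3, Hnrnpk and Srsf3, about equal for Hnrnpf, and is nearly absent for Hnrnpa2b1 and Srsf7.

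Related genes were then compared within pairs, as the log2 ratio of CPM per kilobase in each library. All 16 measured pairs kept their order in all 3 libraries and each mean ratio exceeded its SD. An exact sign-flip test with 3 libraries cannot give a two-sided p below 0.25, the value of every pair before and after adjustment over 16 pairs. In 11 pairs the order also held with other transcript lengths, without division by length and with pseudogene rows added. A 17th pair, Srsf2 and Srsf8, was not measured because Srsf8 had no matching row.

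Some pairs had one dominant member. Hnrnpl exceeded Hnrnpll by 10.3-fold per kilobase (log2 ratio 3.37 ± 0.26), Mbnl1 exceeded Mbnl2 by 10.1-fold (3.34 ± 0.14) and Ptbp1 exceeded Ptbp3 by 5.70-fold (2.51 ± 0.12). Hnrnpa1 exceeded Hnrnpa3 by 3.47-fold (1.79 ± 0.11), or 2.41-fold with pseudogene rows. Hnrnph1 exceeded Hnrnph2 by 2.81-fold (1.49 ± 0.13) but lay 3.24-fold below Hnrnpf (log2 ratio -1.70 ± 0.13). Hnrnpdl was 3.52-fold above Hnrnpd, Srsf7 2.94-fold above Srsf3 and Srsf5 2.10-fold above Srsf4. Hnrnpu was 2.00-fold above Hnrnpul1, and Srsf1 was 1.90-fold above Srsf9.

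The size of these ratios depended on the length and rows used, although their order did not. Without division by length, Hnrnpl was 5.27-fold above Hnrnpll, Mbnl1 15.8-fold above Mbnl2, Ptbp1 3.61-fold above Ptbp3, Hnrnpa1 2.03-fold above Hnrnpa3 and Srsf1 6.58-fold above Srsf9. Per kilobase of the median and longest coding transcript, the log2 ratio of Hnrnpd to Hnrnpdl was -0.53 and -2.51, and that of Hnrnpu to Hnrnpul1 was 0.23 and 0.41. The log2 ratio of Hnrnph1 to Hnrnph2 was 2.00 and 2.63 by these lengths, and that of Hnrnph1 to Hnrnpf was -1.31 and -0.77. With pseudogene rows, Hnrnpf was 6.49-fold above Hnrnph1, Srsf7 1.44-fold above Srsf3 and Srsf5 3.18-fold above Srsf4. Srsf7 was 1.32-fold above Srsf3 without division by length.

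In 5 pairs the order depended on how a level was computed. Celf1 exceeded Celf2 by 9.02-fold per kilobase of all annotated exons (log2 ratio 3.17 ± 0.11), but the log2 ratio was -0.14 with the median length of coding transcripts and 1.73 with the longest. Celf2 has 25884 bases of annotated exons. The ratio of Hnrnpa1 to Hnrnpa2b1 was -0.19 ± 0.14 on the log2 scale and turned to 2.03 ± 0.25 with pseudogene rows. For Tra2a and Tra2b it turned from 0.14 ± 0.09 to -0.82 ± 0.01 by that step, and for Srsf5 and Srsf6 from -0.37 ± 0.22 to 0.23 ± 0.20. Without division by length the log2 ratio of Tra2a to Tra2b was -0.27. Hnrnpul1 to Hnrnpul2 was -0.22 ± 0.10, and 0.67 with median and 0.50 with longest transcript lengths.

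**Figure D3:**
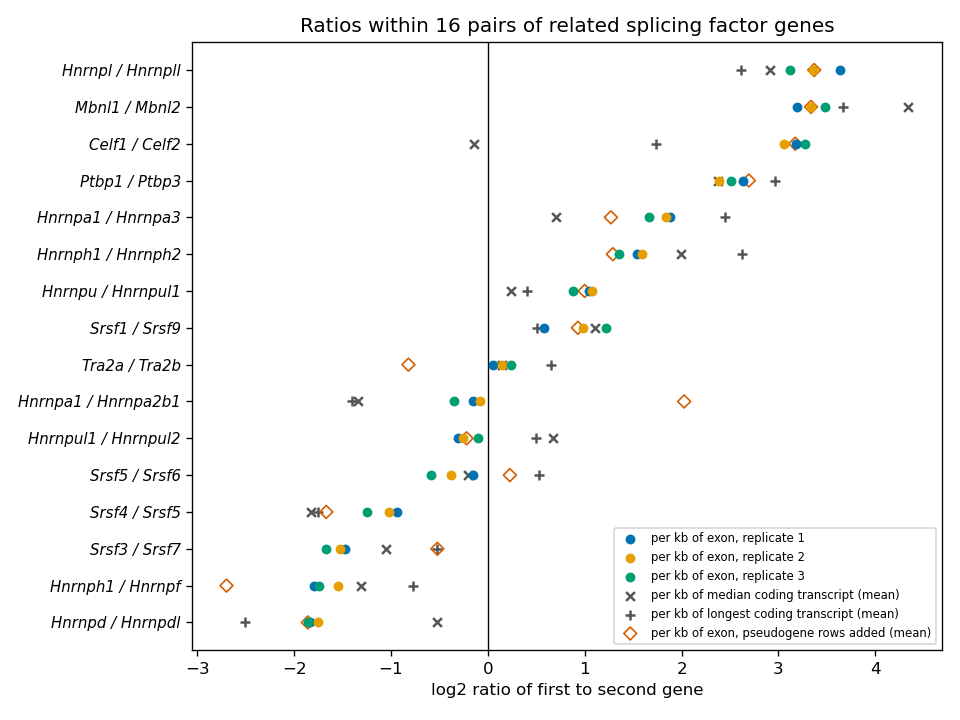
Log2 ratio of the first to the second gene in 16 pairs, per kilobase of exon in each library (filled points), with mean ratios under other lengths (crosses) and with pseudogene rows added (open diamonds). Points of 1 pair lie on 1 side of 0 in all 3 libraries, while a cross or diamond changes side for Celf1 and Celf2, Hnrnpa1 and Hnrnpa2b1, Tra2a and Tra2b, Srsf5 and Srsf6, and Hnrnpul1 and Hnrnpul2.

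A count per gene symbol does not separate coding isoforms from isoforms marked for decay. Among the members, 25 of 41 (61.0%) have an annotated transcript of the nonsense-mediated decay class, 9 of 11 Srsf genes among them, beside 32.6% of 8057 coding genes of at least 10 CPM. The members also have more annotated transcripts, with a median of 9 against 6, and the part of that difference in the share was not tested. In 9 members an internal exon that shares no base with a coding transcript holds the premature stop. Pairs in which both genes have such an exon are shown from its first base to the stop codon in capitals (GRCm38, transcript strand), since any reads from these exons would enter the row of the gene if the counting covered them.
Srsf3 (chr17:29039454-29039487, plus strand): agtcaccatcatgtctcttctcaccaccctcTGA
Srsf7 (chr17:80205054-80205081, minus strand): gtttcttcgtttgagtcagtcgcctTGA
Tra2a (chr6:49252965-49253108, minus strand): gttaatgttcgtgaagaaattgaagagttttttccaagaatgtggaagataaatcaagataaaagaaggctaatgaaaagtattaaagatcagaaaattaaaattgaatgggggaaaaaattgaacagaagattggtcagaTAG
Tra2b (chr16:22259181-22259261, minus strand): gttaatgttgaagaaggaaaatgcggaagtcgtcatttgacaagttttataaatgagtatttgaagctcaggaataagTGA
Hnrnpl (chr7:28817335-28817393, plus strand): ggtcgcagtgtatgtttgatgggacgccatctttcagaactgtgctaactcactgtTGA
Hnrnpll (chr17:80044976-80045022, minus strand): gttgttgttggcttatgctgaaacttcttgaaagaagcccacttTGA

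These stops lie 34 and 28 bases into the exons of Srsf3 and Srsf7, which are 456 and 460 bases long, and 144 and 81 bases into those of Tra2a and Tra2b, the former 306 bases long. Exons of Hnrnpl and Hnrnpll are shorter, at 70 and 83 bases. How many reads fell in them was not measured here.

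Most members differed between the 3 libraries by small amounts. When raw counts were tested by chi-square against scaled library sizes, 36 of 41 members (87.8%) passed a Benjamini-Hochberg adjusted p of 0.05, beside 42.8% of all 15392 genes tested and 78.5% of the 2538 genes of at least 100 CPM. The members that did not pass were Hnrnpul2, Hnrnph3, Mbnl2, Tra2b and Srsf12. By size, only Srsf10 differed by 1.5-fold or more between its highest and lowest library (1 of 41, beside 13.8% of all genes tested and 7.25% of those of at least 100 CPM), and without replicate 1 or without replicate 3 none did. The median coefficient of variation over the 40 members of at least 10 CPM was 8.41%, beside 8.67% over all genes at that level. Over genes of at least 100 CPM, a level that 35 members reached, it was lower, at 7.11%. For these 40 members, counting alone would give 0.901% to 5.58%.

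The members fell on both sides. Of the 36 that passed, 19 were highest in replicate 3, 9 in replicate 2 and 8 in replicate 1. Over all genes, the same counts were 2945, 886 and 2758 of the 6589 that passed (19.1%, 5.76% and 17.9% of all genes tested, passing or not). Among genes of at least 100 CPM, 42.4% passed and were highest in replicate 3, and 27.4% in replicate 1. Of the 1993 such genes that passed, 1075 were highest in replicate 3, 223 in replicate 2 and 695 in replicate 1. Srsf10 was 1.5-fold higher in replicate 3 than in replicate 1 (adjusted p = 2.37e-28 in the chi-square test over all 3 libraries). Sfpq was 1.37-fold higher (adjusted p = 5.85e-81 in the same test). In the opposite direction, Hnrnpa0, whose protein binds cytokine messenger RNAs, had 330, 259 and 227 CPM and was 1.45-fold higher in replicate 1 (adjusted p = 7.68e-61). Srsf9, Srsf2 and Srsf4 were 1.42-, 1.40- and 1.38-fold higher in replicate 1 than in replicate 3. The genes highest in replicate 1 were Hnrnpa0, Hnrnpab, Hnrnpl, Hnrnpm, Srsf2, Srsf4, Srsf5 and Srsf9.

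Length and base composition differed between these genes. Members highest in replicate 1 had a median GC content of 52.7% and a median of 3260 exonic bases, and members highest in replicate 3 had 45.7% and 6584 bases. Over all coding genes of at least 10 CPM the corresponding medians were 54.4% and 3021 bases against 48.0% and 6144 bases. Across the 40 members, the log2 ratio of replicate 3 to replicate 1 had a Pearson r of 0.48 with log2 exonic length (Spearman 0.39) and of -0.51 with GC content (Spearman -0.32), as a description over genes that share the same libraries. All coding genes of at least 10 CPM gave 0.41 and -0.37.

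After each library's dependence on length and GC content, fitted over coding genes, was removed, 30 members passed the test, beside 36% of all genes tested and 67.9% of those of at least 100 CPM. Of these, 28 had also passed before. The calls of Celf1, Hnrnpa3, Hnrnpk, Hnrnpll, Hnrnpr, Khdrbs1, Mbnl1 and Tra2a were lost, and Hnrnpul2 and Tra2b were gained. Among the 28, the ratio of replicate 3 to replicate 1 changed sign for 8: Celf2, Hnrnpa1, Hnrnpa2b1, Hnrnph1, Hnrnpu, Ptbp3, Srsf1 and Srsf7. Hnrnpa2b1 went from a log2 ratio of 0.21 to -0.04. Members that passed and were highest in replicate 1 then numbered 14 instead of 8, and those highest in replicate 3 numbered 10 instead of 19. Over the 41 members the median log2 ratio of replicate 3 to replicate 1 went from 0.14 to -0.05. The opposite directions of Sfpq and Srsf10 against Srsf2, Srsf4, Srsf9 and Hnrnpa0 remained, with log2 ratios of replicate 3 to replicate 1 of 0.38 and 0.33 against -0.41, -0.40, -0.32 and -0.44. Hnrnpm, Srsf3 and Srsf5 then had similar falls of -0.43, -0.43 and -0.34, while Srsf11 and Srsf6 had 0.23 and 0.22.

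**Figure D4:**
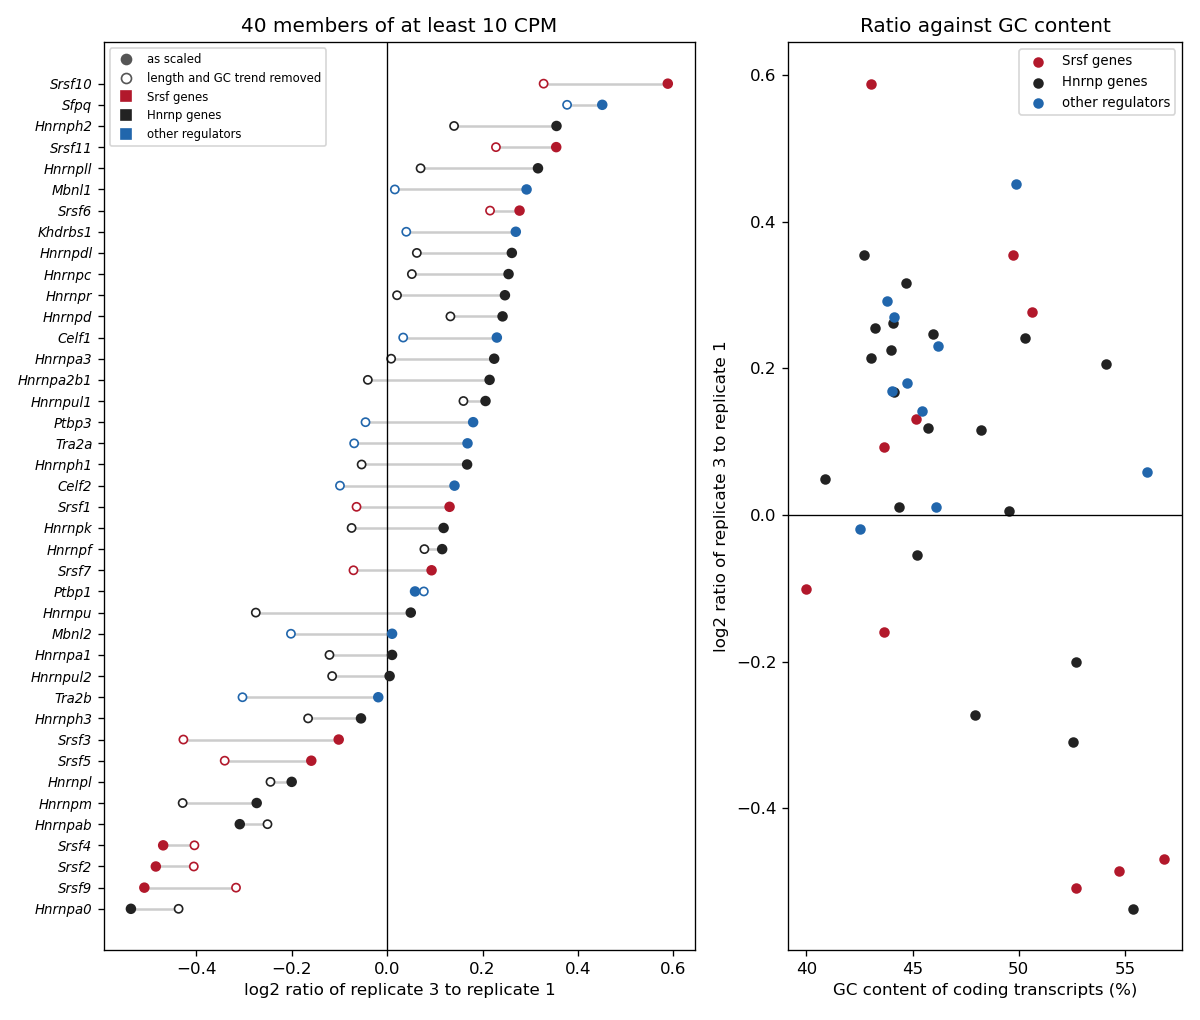
Left, log2 ratio of replicate 3 to replicate 1 for the 40 members of at least 10 CPM, as scaled (filled) and with the length and GC trend removed (open), coloured by family. Right, the same ratio as scaled against the GC content of coding transcripts, where Hnrnpa0, Srsf2, Srsf4 and Srsf9 lie at the GC-rich end below 0, and Ptbp1 and Hnrnpul1 at that end above 0.

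Promoter sequences of the members at both ends of that range are shown, because these genes differed most between libraries in opposite directions. RefSeq windows (GRCm38.p6) from 250 bases before to 50 bases after a gene start matched 37 of 41 members in 54 windows, and Hnrnpll, Hnrnpul2, Khdrbs1 and Ptbp3 had none. Capitals mark matches to 7 motifs on either strand, which may overlap. The motif CCAAT is known from many promoters of housekeeping genes, and GGGCGG is the GC box bound by Sp1. The motif TATAAA is the box near the start of transcription. The core CCGGAAG is bound by ETS factors, the E-box is CACGTG, and the cyclic AMP response element is TGACGTCA. The seventh is the NRF1 motif.
Hnrnpa0 (chr13:58128507-58128806, minus strand): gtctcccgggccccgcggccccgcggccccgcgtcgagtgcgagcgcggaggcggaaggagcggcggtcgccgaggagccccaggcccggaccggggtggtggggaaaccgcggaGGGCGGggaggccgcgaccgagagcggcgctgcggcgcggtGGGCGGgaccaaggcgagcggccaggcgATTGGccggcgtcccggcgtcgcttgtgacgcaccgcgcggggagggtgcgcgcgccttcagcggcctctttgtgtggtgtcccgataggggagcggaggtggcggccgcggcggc
Srsf10 (chr4:135855821-135856120, plus strand): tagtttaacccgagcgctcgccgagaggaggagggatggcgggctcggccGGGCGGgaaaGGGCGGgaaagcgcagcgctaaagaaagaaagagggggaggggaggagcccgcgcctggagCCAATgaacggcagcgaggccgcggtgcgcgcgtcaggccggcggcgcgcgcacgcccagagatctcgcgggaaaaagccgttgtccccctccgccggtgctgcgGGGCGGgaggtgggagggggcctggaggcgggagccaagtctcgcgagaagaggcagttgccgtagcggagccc

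The Hnrnpa0 window held 2 GC boxes and 1 CCAAT box and had 79.7% GC, and the Srsf10 window held 3 GC boxes and 1 CCAAT box and had 71.3% GC. None of the other 5 motifs occurred in either. GGGCGG was in 42 of 54 member windows (77.8%), beside 35.7% of all 32851 windows and 65.4% of windows of genes of at least 10 CPM. CCAAT was in 26 of 54 (48.1%), beside 37.4% and 37.0%. For TATAAA the member share was 11.1%, against 13.6% and 6.50%, and for CCGGAAG 18.5%, against 8.86% and 21.2%. The remaining motifs were in 12.96% (CACGTG), 1.85% (TGACGTCA) and 14.8% (NRF1) of member windows, against 7.15%, 1.79% and 4.60% of all windows and 10.9%, 3.40% and 11.8% of windows of genes of at least 10 CPM. Median GC content was 64.2% in member windows, against 52.7% in all windows and 61.3% in those of genes of at least 10 CPM. The part of base composition in these shares was not tested. Some windows of 1 gene overlap, and a match of letters is a description of these windows.

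The machinery around these regulators was measured as well. Among 11 kinases of SR proteins and nuclear import carriers, 7 reached 100 CPM by their mean. They were led by Srpk1 (270, 305 and 292 CPM), a kinase of the arginine and serine domain, and Tnpo1 (247, 277 and 275 CPM), an import receptor known for carrying hnRNPs such as Hnrnpa1. Srpk3 had 0, 1 and 0 counts. Of 10 tested, 7 passed the chi-square test between libraries (42.8% of all genes and 78.5% of genes of at least 100 CPM did, which applies to each of these lists), 1 of them highest in replicate 1. Among 13 genes of splice site recognition, 10 were at 100 CPM or more, led by Sf3b1 (598 ± 16.5 CPM) and Sf3b3 (584 ± 20.4 CPM) of the U2 particle, and 10 passed, 5 of them highest in replicate 1. Of 12 core spliceosome genes, 11 reached 100 CPM and 8 passed. The largest were Prpf8, the scaffold of the catalytic centre, at 1096 ± 14.2 CPM and the helicase gene Snrnp200 at 732 ± 31.0 CPM.

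Other regulators of alternative splicing ranged more widely. Of 37 listed genes, 17 reached 100 CPM by their mean, and in all libraries 11 stayed below 1 CPM. Srrm2 (2049, 2321 and 2442 CPM) and Son (948, 1039 and 1141 CPM), large proteins of nuclear speckles, were the most abundant, and both were highest in replicate 3. The nearest relatives of members differed in level. Ptbp2, mostly known from neurons, was at 25.1 ± 1.56 CPM and Mbnl3 at 31.2 ± 4.34 CPM. Syncrip, a relative of Hnrnpr, was at 312 ± 43.6 CPM, and Nono, a partner of Sfpq, at 311 ± 17.8 CPM. Of 27 tested, 19 passed (70.4%), with 14 highest in replicate 3 and 4 in replicate 1. Of all genes tested, passing or not, 19.1% and 17.9% passed and were highest there, and 42.4% and 27.4% of genes of at least 100 CPM. In the list of the exon junction complex and nonsense-mediated decay, 7 of 11 genes were at 100 CPM or more, led by Smg1 (616 ± 74.8 CPM), a kinase of the decay pathway, and 8 passed. These lists, like the members, were chosen with earlier results of these data known.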

How the data were processed

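The aligner, counting tool, annotation and use of strand were not given in the sources used. Per the labels' protocols, RNA was extracted with Trizol and the library kit was the Ion Proton RNA-Seq Kit. The authors deposited raw counts per gene symbol, 1 column per replicate, and the submitters' processing notes name mm10. The 3 libraries form 1 group, so no groups were compared.

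Counts were scaled with edgeR 4.0.16 (TMM factors 0.962, 1.01 and 1.03) in R 4.3.3. Differences between libraries were tested with a chi-square test for genes with an expected count of at least 5 in each library, with Benjamini-Hochberg adjustment over all genes tested. In simulated libraries of 15386 genes, the test found 36% of genes altered by the smallest fold simulated, which was below 1.5, 58% of those altered 1.5-fold, 84% of those altered 2-fold and 100% of those altered 4-fold (50 genes per size). Of its 143 calls there, 2.80% were false. In the data the test called 6589 of 15392 genes. The share of false calls holds for the simulated libraries and was not measured in the data. Gene bounds, union exon lengths and GC content of coding transcripts came from GENCODE release M21 (GRCm38), which matched 32200 of 44788 symbols. The length and GC trend was fitted robustly with splines of 6 degrees of freedom over 8994 coding genes of at least 5 CPM, and genes without a match were left unadjusted. Pseudogene transcripts were aligned with blastn 2.17.0, and each row was given to its best member. Promoters came from RefSeq.

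Members and gene lists were chosen with earlier results of these data known. Given in full are the 10 members of highest mean CPM, those in pairs, under 1 CPM or differing by 1.5-fold, and the extremes of variation. Of other lists, the 2 most abundant genes and the nearest relatives of members are named, except 1 gene that is not reported here, and Hnrnpa0, the examples of the library comparison beyond Srsf10 and the genes of the pseudogene comparison were named after their values were seen. Alternatives were DESeq2 1.42.0 size factors, no scaling factor, no ribosomal RNA rows, other filters, limits and lengths, each replicate left out, and, added after seeing the data, pseudogene rows summed with their member.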

Additional observations from a re-analysis of the deposited data

How the results depend on the processing

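Of 66 alternative values of 7 results, 54 counted as unchanged. The limit was 1.5 times, except that the shares of counts had to stay within the spread between libraries. The 12 others include the shares of counts with pseudogene rows, which lay within 1.5 times but outside the spread between libraries. The single member differing by 1.5-fold or more, Srsf10, lay at the limit: the count was 0 to 1 when a replicate was left out, 0 with DESeq2 size factors, 0 with the length and GC trend removed and 0 with pseudogene rows added (90% or 98% identity), and it was 8 with the lower of the other limits tried and 0 with a limit of 2-fold. With a limit of 100 CPM per kilobase instead of 100 CPM, 6 members remained. Called members highest in replicate 1 rose from 8 to 14 with the trend removed. The members' share of counts was 1.53% and 1.47% with pseudogene rows. Leaving out each replicate gave 24 to 35 members differing between libraries (24, 35 and 27 without replicates 1, 2 and 3, beside 24.4%, 41.7% and 22.8% of all genes), 34 members of at least 100 CPM, a median coefficient of variation of 5.75% to 10.96% and 16 pairs ordered alike. Called members highest in replicate 1 cannot be counted without that replicate. No paired analysis was possible because the labels give 1 group. Depth limits Srsf12 most, at 4 to 9 counts, and the spread of Hnrnph3, Mbnl2 and Hnrnpul2 was also below that of counting alone (5.42% against 5.58%, 3.68% against 4.35%, and 0.263% against 1.55%).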

Other observations

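Pseudogene rows aligned to the members also differed between libraries. The parts of their length, GC content and any reads shared with the members were not tested. Of 60 such rows tested by chi-square, 33 passed (beside 42.8% of all genes tested) and 22 of them were highest in replicate 1 (36.7% of those tested, beside 17.9%). Among the 37 tested rows under 98% identity to their member, 14 passed, 13 of them highest in replicate 1 and 0 in replicate 3, and the log2 ratio of replicate 3 over replicate 1 had a median of -0.35 over the 37. Among the 23 rows of 98% identity or more, 19 passed, 9 of them highest in replicate 1 and 6 in replicate 3, with a median of -0.08. The pseudogene rows of Hnrnpa1 summed to 419%, 373% and 334% of the Hnrnpa1 row in replicates 1, 2 and 3, and those of Hnrnpk to 149%, 134% and 116%, whereas those of Tra2b summed to 81.9%, 94.8% and 110%. Hnrnpa1l2-ps, left out of the members by its symbol, had 17.4, 14.7 and 6.81 CPM.

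Eif4a3, a core protein of the exon junction complex, was the only gene of its list to differ by 1.5-fold or more, with 184, 121 and 96.8 CPM. Pcbp1, which binds runs of cytidine, had 506, 401 and 341 CPM, while its relative Pcbp2 had 473, 496 and 536 CPM, so the relatives moved in opposite directions between replicates 1 and 3. Both genes were named after their values were seen. Exons of some members overlap those of other genes in the annotation, and how reads there were assigned is not given in the sources. March2 shares 14.7% of the exonic bases of Hnrnpm on the same strand. Gm12992 covers 43.0% of the exonic bases of Srsf4 on the opposite strand, as do Phykpl for 29.1% of those of Hnrnpab and Mettl23 for 15.6% of those of Srsf2. Reads of such opposite-strand overlaps cannot be told apart without strand.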
